A study of Mus musculus with 18 samples.

Results

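Peaks were described at 6 genes that neurons of the cortex switch on when they are active: Fos, Egr1, Npas4 and Nr4a1, which encode transcription factors, and Arc and Bdnf, which encode proteins that act at synapses. Every peak that overlapped 1 of 6 fixed mm39 windows by at least 1 bp was taken, 1 window per gene, whatever its strength. That gave 254 of the 494083 peaks in the 15 deposited peak lists. Each list comes from 1 ChIP-seq library, in which chromatin was precipitated with an antibody and the DNA sequenced. The windows are Fos at chr12:85510000-85535000, Egr1 at chr18:34983000-35008000, Npas4 at chr19:5024000-5050000, Nr4a1 at chr15:101142000-101183000, Arc at chr15:74530000-74555000 and Bdnf at chr2:109495000-109568000. They run from 25 to 73 kb, and each can also reach sequence of its neighbours. In GRCm38.p6 the neighbouring protein-coding genes are Tmed10 and Jdp2 for Fos, Reep2 and Etf1 for Egr1, Mrpl11 and Slc29a2 for Npas4, Grasp and Atg101 for Nr4a1, Mroh4 and Jrk for Arc, and Kif18a and Lin7c for Bdnf.

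All libraries came from whole frozen cerebral cortex of 3 wild-type C57BL/6J female mice aged 14 weeks, called animals 5, 7 and 9. Each animal gave libraries for the histone marks H3K27ac and H3K4me1, for RNA polymerase II phosphorylated at serine 5 (PolII_S5P), for MBD3 and for TDG. No genotype, stimulus or treatment differs between the animals, so the comparisons are between antibodies and between genes. The tissue was not sorted, so neurons and glia contribute together, and a mark in fewer cells cannot be told apart from a weaker mark in each cell. Whether these genes responded to activity in these animals was not tested, because the lists hold no expression values, and the cell types of the tissue were not checked against markers.

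Activity-regulated genes are kept ready in resting neurons, with polymerase and active chromatin at their starts, and calcium entering through synaptic receptors and channels raises their transcription through CREB, SRF and MEF2 at promoters and enhancers. The transcription factors Fos, Egr1, Npas4 and Nr4a1 are made within minutes and act on later genes. Arc moves glutamate receptors from the synapse, and Bdnf is a growth factor transcribed from many alternative starts. H3K27ac lies on active promoters and enhancers, H3K4me1 mainly on enhancers, and PolII_S5P marks polymerase that has begun to transcribe. MBD3 belongs to NuRD, a complex that remodels nucleosomes and removes acetyl groups from histones. TDG is thymine DNA glycosylase, which removes mismatched thymine and oxidized methylcytosine from DNA.

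The sequences before 4 of the gene starts are shown for the core letters of the CREB element that several of them carry. They are the 250 bases before the RefSeq start, from GRCm38.p6, written 5′ to 3′ on the strand of the gene. Capitals mark TGACG, the core of the CREB-bound cyclic AMP response element, or its reverse complement CGTCA, searched on both strands. Fos and Nr4a1 are on the plus strand, Npas4 on the minus strand and Bdnf on the plus strand, and the Bdnf sequence belongs to the third of its 7 listed starts.
Fos: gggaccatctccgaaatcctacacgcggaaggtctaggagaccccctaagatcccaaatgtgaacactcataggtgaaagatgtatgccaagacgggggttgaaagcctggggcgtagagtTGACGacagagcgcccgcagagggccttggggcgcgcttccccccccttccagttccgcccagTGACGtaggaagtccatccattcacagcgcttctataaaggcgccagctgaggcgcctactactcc
Npas4: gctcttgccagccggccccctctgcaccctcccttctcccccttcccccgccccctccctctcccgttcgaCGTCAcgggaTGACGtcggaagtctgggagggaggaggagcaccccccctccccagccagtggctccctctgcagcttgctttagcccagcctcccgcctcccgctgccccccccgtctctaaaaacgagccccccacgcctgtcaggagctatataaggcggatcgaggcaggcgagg
Nr4a1: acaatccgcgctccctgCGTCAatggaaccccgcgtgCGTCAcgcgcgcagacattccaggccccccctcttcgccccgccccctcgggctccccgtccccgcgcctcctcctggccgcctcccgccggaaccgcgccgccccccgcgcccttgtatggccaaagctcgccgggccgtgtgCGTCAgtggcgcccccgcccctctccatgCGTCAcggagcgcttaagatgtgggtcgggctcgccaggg
Bdnf: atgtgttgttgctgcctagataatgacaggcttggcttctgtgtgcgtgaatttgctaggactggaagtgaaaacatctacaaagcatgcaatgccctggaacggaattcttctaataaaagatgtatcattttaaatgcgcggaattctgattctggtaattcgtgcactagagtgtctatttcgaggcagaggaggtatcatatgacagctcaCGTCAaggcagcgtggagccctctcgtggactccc
TGACG in either direction stood in 17.8% of 32851 RefSeq promoters of this length. It occurred 2 times at Fos, 2 times at Npas4, 4 times at Nr4a1 and 1 time at the third start of Bdnf. Only 0.137% of promoters held as many as Nr4a1. The other 6 Bdnf starts held none. Within these 250 bases, none of the sequences held the full palindrome TGACGTCA (1.55% of promoters) or the CArG box, the element bound by SRF (1.47%). Bases farther from the starts were not searched, so these elements may lie there. TATAAA was found at Fos, as in 12.4% of promoters. Nr4a1 was also rich in CpG, with 34 CpG and 74.4% GC against medians of 6 and 52.4%, and as many CpG stood in 3.53% of promoters. Fos had 15 CpG, Npas4 16 and the third Bdnf start 9. A match is a string of letters and no evidence of binding. These sequences could not be set against the peaks, whose coordinates are on mm39. Arc and Egr1 have no sequence printed here.

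H3K27ac and MBD3 had peaks at all 6 genes in all 3 animals. PolII_S5P had peaks in all 3 animals at 5 genes, and at Bdnf in animals 7 and 9 only. H3K4me1 had peaks in all 3 animals at 0 of the 6 genes, although each gene had at least 1 H3K4me1 peak in some animal. TDG had no peak at any gene in any animal. By animal 5, 7 and 9 in that order, the windows held 30, 31 and 33 H3K27ac peaks, 40, 38 and 29 MBD3 peaks, 11, 13 and 10 PolII_S5P peaks, and 10, 9 and 0 H3K4me1 peaks. The map of peaks shows them gene by gene.

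**Figure D1:**
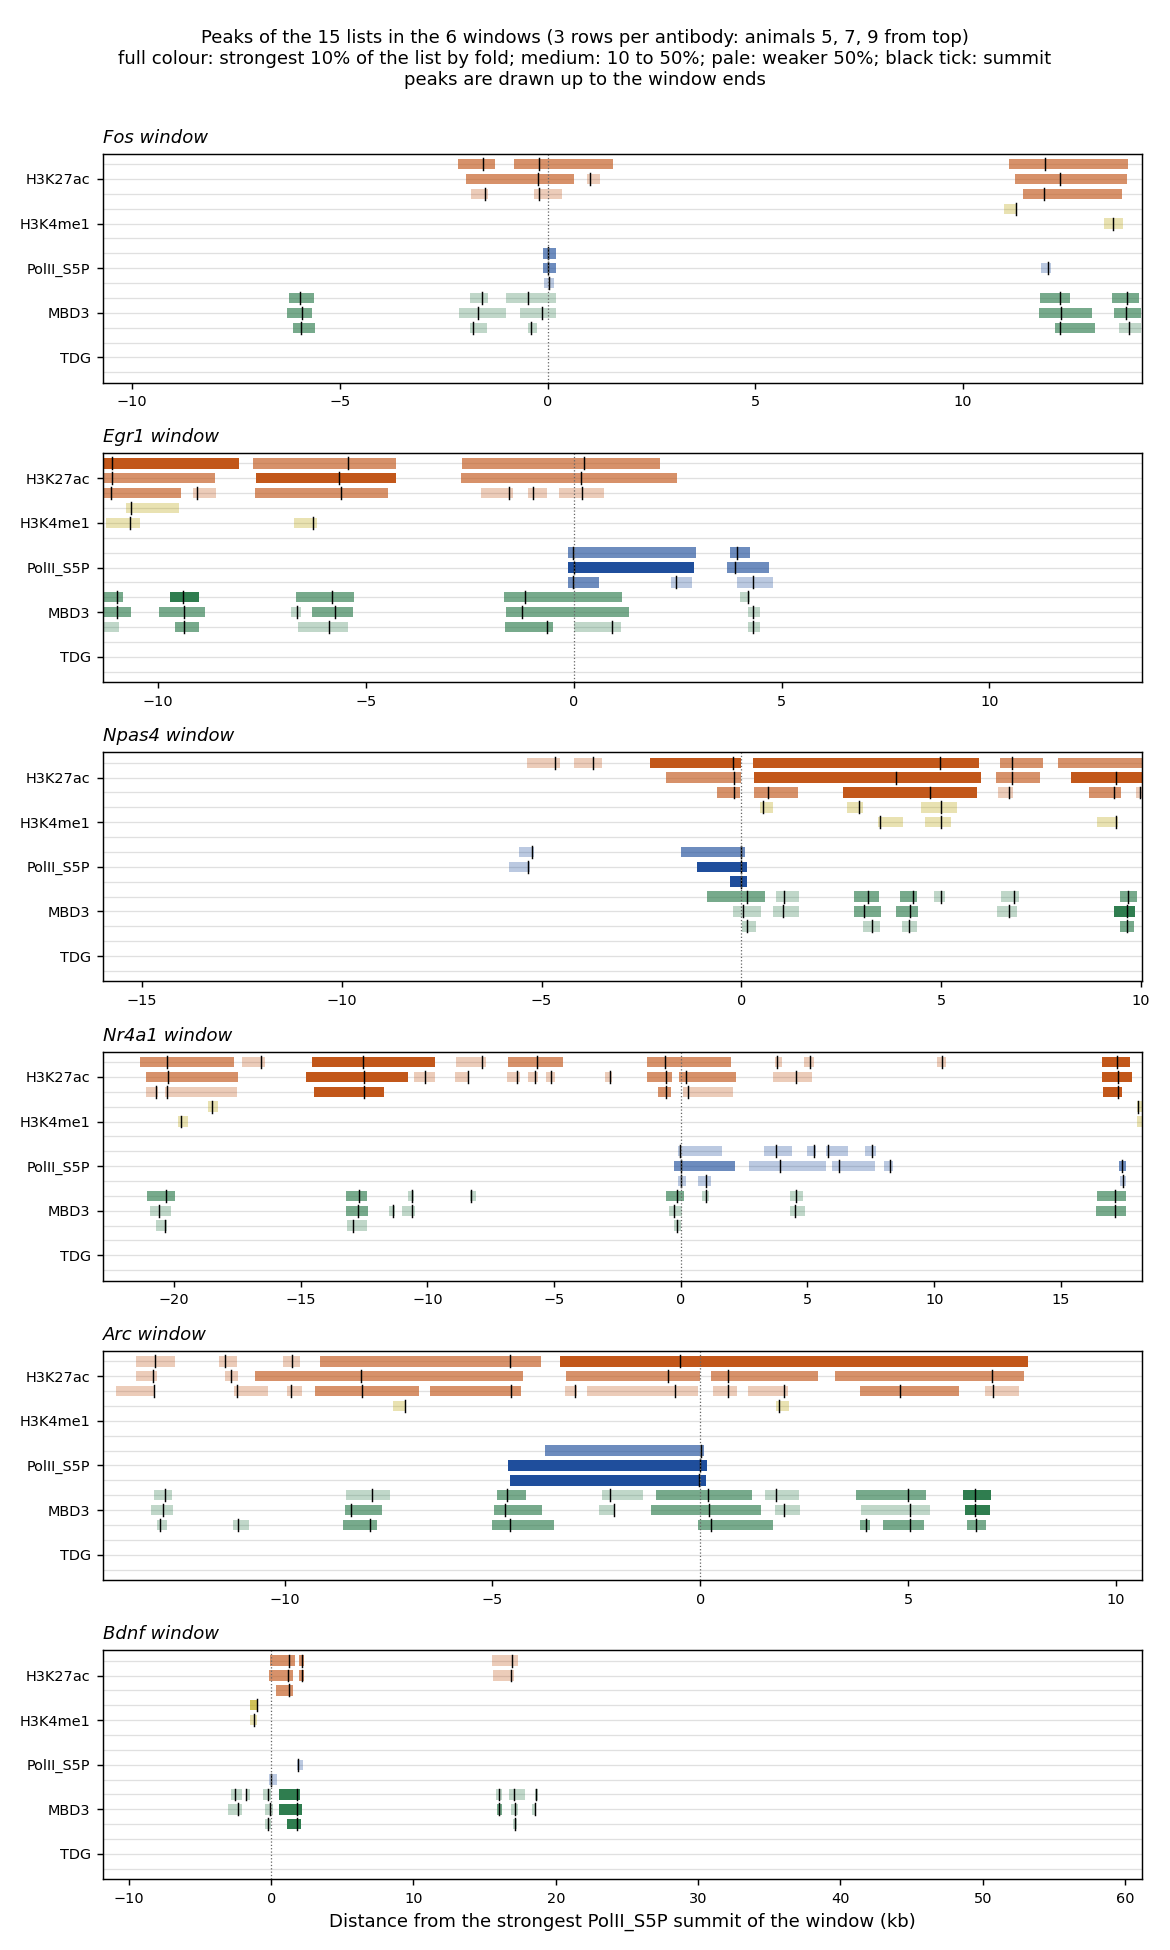
Each panel is 1 window, with the horizontal axis giving distance in kb from its strongest PolII_S5P summit, and each bar is a peak of 1 animal, coloured by antibody and shaded by its standing in its list. The 3 PolII_S5P bars at Arc are 3821 to 4793 bp wide and lie over each other, and the TDG rows are empty at all 6 genes.

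For background, chromosomes 1 to 19, X and Y were divided into tiles of the same length as the windows. Of all 25 kb tiles, the length of 4 of the 6 windows to within 1 kb, 21.4% had an H3K27ac peak in all 3 animals, 21.2% an MBD3 peak, 2.39% a PolII_S5P peak, 8.32% an H3K4me1 peak and 0.0423% a TDG peak. For 41 kb tiles, the length of the Nr4a1 window, the shares were 28.7%, 29.7%, 3.78%, 12.2% and 0.0724%, in the same order. For 73 kb tiles, the length of the Bdnf window, they were 38.7%, 41.1%, 6.46%, 18.7% and 0.126%. The 6 of 6 for H3K27ac and MBD3 and the 5 of 6 for PolII_S5P therefore lay above these shares. With the 3 lists of an antibody cut to equal length by fold, PolII_S5P peaks in all 3 animals were found at 3 genes. The share of tiles was not computed for the cut lists. Tiles with polymerase are the closer comparison. Among the 2598 tiles of 25 kb with PolII_S5P in all 3 animals, 80% had H3K27ac in all 3, 74.6% had MBD3 and 37.9% had H3K4me1. Against those shares the 6 of 6 for H3K27ac and MBD3 do not set these genes apart, and no test was made of 6 genes against tiles. The 0 of 6 for H3K4me1 is close to the 8.32% of all tiles and below the 37.9% of tiles with polymerase. It turned on animal 9, without which 5 genes had H3K4me1 peaks in every animal left.

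Relative coverage is the share of the windows under peaks divided by the share of the whole genome under peaks of the same list. A long list therefore does not score by its length alone. List length still enters, since a short list covers little of the genome and can score high. This relative coverage was 12.6, 11.8 and 10.2 for H3K27ac in animals 5, 7 and 9, with a mean of 11.5 ± 1.24 (SD, n = 3). For MBD3 it was 11.4, 10.9 and 12.6, with a mean of 11.7 ± 0.888. For PolII_S5P it was 85.6, 23.5 and 19.4, with a mean of 42.8 ± 37.1. The 3 animals lay close together for H3K27ac and MBD3, while animal 5 stood far above the others for PolII_S5P. That library has the shortest PolII_S5P list, with 4409 peaks against 19816 and 12691, and its peaks covered 0.0769% of the genome against 0.383% and 0.22%. The share of the windows themselves under PolII_S5P peaks was 6.58%, 9.00% and 4.26%, so animal 5 was not the highest by that measure. Without it the PolII_S5P mean was 21.4. H3K4me1 reached 3.25, 1.94 and 0, with a mean of 1.73 ± 1.64, and TDG was at 0 in all 3 animals.

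**Figure D2:**
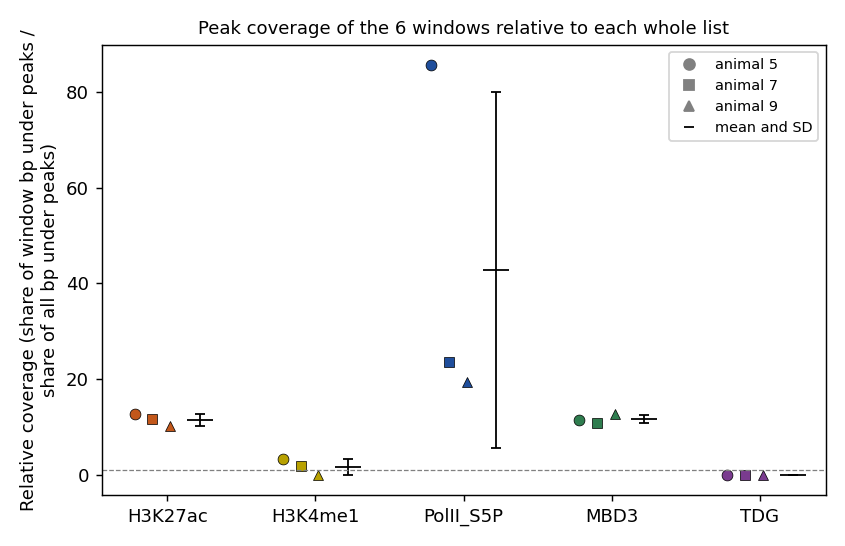
The vertical axis gives relative coverage of the 6 windows, without unit, for each library by antibody, with the mean and SD of the 3 animals beside the points and a dashed line at 1, where windows and genome are covered alike. H3K27ac and MBD3 points lie between 10.2 and 12.6, and the PolII_S5P point of animal 5 lies at 85.6.

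Antibodies differed in relative coverage over the 15 libraries (eta squared 0.563, the share of variance between antibodies, permutation p = 4e-05). The lists run from 130 to 68887 peaks and were not cut to equal length across antibodies. The part of list length in this difference was not tested. No pair of antibodies can pass the threshold, since 3 libraries against 3 give an exact permutation p of at least 0.1. In 8 of the 10 pairs the libraries did not overlap, each with an exact permutation p of 0.1 and an adjusted p of 0.125 over the 10 pairs. Pairs with TDG rest on its coverage of 0, from lists of 130, 256 and 957 peaks. A count of 0 there allows up to 0.223% of all 1343 TDG peaks. Whether TDG covers these windows less than another antibody was therefore not settled, and the same 0 values enter eta squared. H3K27ac and MBD3 overlapped, with a difference in means of -0.126 (exact permutation p = 1, adjusted 1). H3K4me1 and TDG overlapped too, with a difference of 1.73 (exact permutation p = 0.4, adjusted 0.444). The 6 lists of MBD3 and TDG name unplaced sequences with a repeated prefix and the other 9 do not. The reason for this difference between the files is not given, and it cannot be told apart from the antibody. Within the 9 lists of H3K27ac, H3K4me1 and PolII_S5P, a subset chosen after seeing the data, the antibodies differed (eta squared 0.50, exact permutation p = 0.00357). The part of the file difference in the antibody effect was not tested.

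The standing of single peaks is given by the authors' fold enrichment and by its rank within the list, where rank 1 is the highest fold. Fold enrichment is the pileup over the local background. The H3K27ac lists hold 66989, 68887 and 58679 peaks in animals 5, 7 and 9, the MBD3 lists 57622, 62164 and 39326, and the H3K4me1 lists 33835, 45711 and 22611. Ranks are set against each list's own length, and a rank in 1 list cannot be compared with a rank in another as a change in level.

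**Figure D3:**
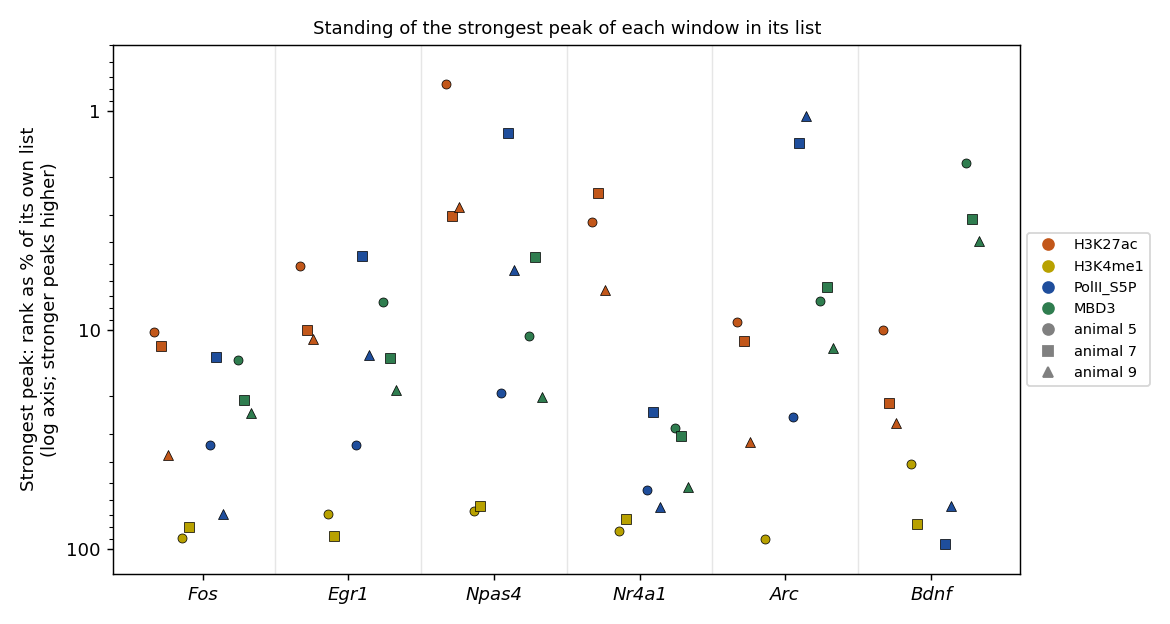
The vertical axis gives the rank of the strongest peak of each window as a percent of its own list, on a log axis with stronger peaks higher, for each gene, antibody (colour) and animal (symbol). Arc and Npas4 stand highest for PolII_S5P and Bdnf for MBD3, and the H3K4me1 points lie between 40.9% and 90.7%.

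Fos, the partner of Jun in the AP-1 transcription factor, had a narrow PolII_S5P peak at 1 place. Its summits lay at 85520709, 85520693 and 85520721 on chromosome 12, within 28 bp of each other, and the peaks were 302, 318 and 245 bp wide. Folds were 4.37, 5.87 and 3.35 at ranks 1488, 2633 and 8828, which is the strongest 33.7%, 13.3% and 69.6% of the lists. The position was shared while the standing by fold was not, with animal 7 highest and animal 9 below the median of its list. Ranked by −log10 q-value, the strongest PolII_S5P peak of Fos stood on average at 12.6% of the lists, against 38.9% by fold. The strongest H3K27ac peak had folds of 6.90, 6.53 and 4.11 at ranks 6836, 8194 and 22020. In animals 5 and 7 it lay over the PolII_S5P peak, and in animal 9 it lay 11.9 kb away, at the region chr12:85531681-85534978. At the PolII_S5P peak itself the H3K27ac fold of animal 9 was 3.16.

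MBD3 at Fos stood low in its lists at the PolII_S5P peak. The nearest MBD3 summit was 130 to 481 bp from the PolII_S5P summit, and the MBD3 peaks that overlapped the PolII_S5P peak in animals 5 and 7 had folds of 4.97 and 4.70, in the strongest 65.9% and 65.7% of their lists. The strongest MBD3 peaks had folds of 10.7, 8.55 and 7.96 at ranks 7935, 13079 and 9463. They lay 5.97 to 13.9 kb from the PolII_S5P summit at 3 different places, each of which held an MBD3 peak in every animal. An MBD3 site at chr12:85514424-85515094 held peaks of all 3 animals, with folds of 9.77, 7.61 and 7.96, and no peak of another antibody. Among the 16 sites with MBD3 in every animal it was the only 1 with neither PolII_S5P nor H3K27ac.

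Egr1, a zinc finger transcription factor, had its strongest PolII_S5P summits within 23 bp of each other, at 34994307, 34994326 and 34994303 on chromosome 18. Folds were 4.37, 7.72 and 5.55 at ranks 1487, 917 and 1665, the strongest 33.7%, 4.63% and 13.1% of the lists. The peaks were 3076, 3036 and 759 bp wide and reached 2957, 2883 and 634 bp above the summit against 118, 152 and 124 bp below it. All 3 were thus lopsided toward higher coordinates, and animal 9 had a second peak of 513 bp where the other 2 animals had 1 unbroken peak. A separate PolII_S5P site at chr18:34998002-34999119 had peaks in every animal, with folds of 4.05, 5.25 and 3.41. It also held MBD3 peaks in every animal and no H3K27ac peak in any.

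H3K27ac at Egr1 was spread over 3 regions that held peaks in every animal. At the PolII_S5P region, chr18:34991605-34997264, the H3K27ac folds at the overlapping peaks were 4.74, 5.04 and 3.65. The strongest H3K27ac peaks of the window had folds of 8.50, 6.89 and 6.04 at ranks 3436, 6881 and 6496, the strongest 5.13%, 9.99% and 11.1%. They lay 5.66 to 11.1 kb from the PolII_S5P summit, in animals 5 and 9 at the lower end of the window, where Reep2 is the neighbouring gene. The strongest MBD3 peaks had folds of 13.2, 10.2 and 8.75 at ranks 4319, 8340 and 7389. In animal 7 that peak overlapped the PolII_S5P peak, and in animals 5 and 9 it lay 9.39 and 9.37 kb away.

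Npas4, a transcription factor made almost only in neurons, had PolII_S5P summits at 5039956, 5039973 and 5039953 on chromosome 19, within 20 bp of each other. Folds were 5.07, 11.1 and 6.87 at ranks 860, 251 and 678, the strongest 19.5%, 1.27% and 5.34%. In animals 5 and 7 no other gene of the 6 had a better PolII_S5P rank. The peaks were 1607, 1248 and 408 bp wide and reached 1495, 1109 and 260 bp below the summit against 111, 138 and 147 bp above it. Npas4 lies on the minus strand, so the longer side is the downstream side in each animal.

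H3K27ac at Npas4 was among the strongest of its lists. Folds were 12.8, 9.37 and 8.71 at ranks 509, 2081 and 1624, the strongest 0.760%, 3.02% and 2.77%. The summits lay 3.88 to 4.98 kb from the PolII_S5P summit, toward higher coordinates and so on the upstream side. The H3K27ac peaks that overlapped the PolII_S5P peak had lower folds of 7.32, 4.88 and 4.35. The strongest MBD3 peaks lay farther upstream, 9.66 to 9.68 kb from the PolII_S5P summit and within 11 bp of each other, with folds of 11.7, 14.4 and 8.56 at ranks 6168, 2902 and 8011. An MBD3 summit also stood 26 to 163 bp from the PolII_S5P summit, with folds of 7.44, 4.67 and 3.70. H3K27ac and MBD3 therefore both had the summit of their strongest peak away from the polymerase summit at Npas4 in all 3 animals. For H3K27ac this holds for the summit more than for the peak. The strongest H3K27ac peaks began at 5040261, 5040279 and 5042504, and the PolII_S5P peaks ended at 5040067, 5040111 and 5040100. In animals 5 and 7 the H3K27ac peak thus began close beside the polymerase peak, without overlapping it.

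Nr4a1, an orphan nuclear receptor, had 5, 5 and 3 PolII_S5P peaks by animal in its 41 kb window. That was more than at any other gene in animals 5 and 7, and as many as at Egr1, whose window is 25 kb, in animal 9. The strongest had folds of 3.73, 5.08 and 3.46 at ranks 2372, 4717 and 8219, the strongest 53.8%, 23.8% and 64.8%, and stood at 3 different places up to 17436 bp apart. A position shared by all 3 animals was chr15:101163441-101166987, with PolII_S5P summits at 101164770, 101164793 and 101164802 and folds of 2.68, 5.08 and 3.23. In animal 7 PolII_S5P peaks followed one another from this place toward higher coordinates, with widths of 2382, 3034, 1714 and 361 bp, and in animal 5 with widths of 1724, 1102, 380, 869 and 435 bp. In animal 9 only peaks of 319 and 524 bp were called there. Nr4a1 lies on the plus strand, so these peaks run downstream from the shared summit. PolII_S5P was thus spread over several kb in 2 animals and confined to the shared region, and to a peak at the upper end of the window, in animal 9.

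The strongest H3K27ac peaks of Nr4a1 had folds of 9.54, 9.92 and 7.05 at ranks 2165, 1644 and 3876, the strongest 3.23%, 2.39% and 6.61%. They lay at chr15:101150009-101155106 in animals 7 and 9 and near the upper end of the window, where Atg101 is the neighbouring gene, in animal 5. The same 2 places carried H3K27ac peaks in every animal, with folds of 9.28, 9.92 and 7.05 at the first and 9.54, 8.84 and 6.53 at the second. The strongest MBD3 peaks fell at the first place in every animal, within 229 bp, with folds of 8.02, 7.29 and 5.51 at ranks 16144, 19055 and 20591. These ranks, the strongest 28.0%, 30.7% and 52.4%, are the lowest standing of MBD3 among the 6 genes in every animal.

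Arc, which encodes a protein that removes AMPA receptors from the synapse, had 1 PolII_S5P peak per animal, and it was wide. It ran over chr15:74540639-74544459, chr15:74539746-74544538 and chr15:74539782-74544512 in animals 5, 7 and 9, which is 3821, 4793 and 4731 bp. The median PolII_S5P peak was 349, 387 and 363 bp wide. By width these peaks ranked 6, 32 and 9 in their lists, within the widest 0.136%, 0.161% and 0.0709%. The summits lay within 47 bp of each other at the upper edge, and the peaks reached 3737, 4622 and 4547 bp below them against 83, 170 and 183 bp above. Folds were 4.81, 10.8 and 10.6 at ranks 1108, 280 and 134, the strongest 25.1%, 1.41% and 1.06%. Animals 7 and 9 were alike in fold and width, and animal 5 had a lower fold and a narrower peak. Wide peaks were not confined to Arc. By width, the widest PolII_S5P peaks of Egr1 ranked 14, 123 and 989 in animals 5, 7 and 9, and those of Nr4a1 87, 126 and 3270.

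**Figure D4:**
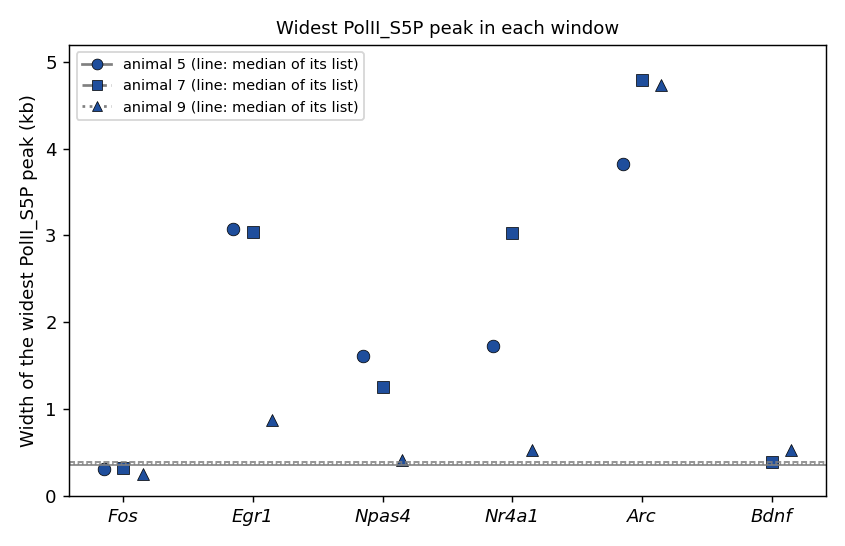
The vertical axis gives the width in kb of the widest PolII_S5P peak in each window, with 1 symbol per animal and horizontal lines at the median width of each animal's list. Arc peaks are 3821 to 4793 bp wide in all 3 animals, while those of Egr1, Npas4 and Nr4a1 are narrower in animal 9 than in the other 2.

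Arc was also the gene most covered by H3K27ac and MBD3. H3K27ac peaks covered 73.3%, 70.4% and 58.1% of its window, and MBD3 peaks 34.5%, 33.9% and 25.8%. Of all 25 kb tiles, between 0.0818% and 0.138% were covered as much by H3K27ac of the same animal, between 0.00184% and 0.0156% by MBD3 and between 0.0653% and 0.276% by PolII_S5P. For the Egr1 window the same shares were 0.561% to 0.882% for H3K27ac, 0.0156% to 0.151% for MBD3 and 0.0818% to 0.431% for PolII_S5P. In fold, the Arc peaks stood less far from the rest of their lists. The strongest H3K27ac peak had folds of 7.13, 6.58 and 4.31 at ranks 6210, 7799 and 19042, the strongest 9.27%, 11.3% and 32.5%, and in animal 5 it was 11244 bp wide. The strongest MBD3 peak had folds of 13.2, 13.1 and 10.4 at ranks 4280, 3960 and 4794, 4.55 to 6.62 kb from the PolII_S5P summit. Other MBD3 summits stood 176 to 294 bp from the PolII_S5P summit, so MBD3 peaks lay on both the polymerase peak and its flanks.

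At Bdnf, the growth factor, MBD3 stood high in its lists and PolII_S5P low. The strongest MBD3 peak had folds of 19.7, 16.2 and 15.3 at ranks 1003, 1947 and 1549, the strongest 1.74%, 3.13% and 3.94%. Its summits lay at 109508607, 109508608 and 109508626 on chromosome 2, within 19 bp. In each animal this was the best MBD3 rank of the 6 genes. PolII_S5P had no peak in animal 5, and in animals 7 and 9 it had folds of 2.63 and 3.50 at ranks 18956 and 8080, the strongest 95.7% and 63.7%. These 2 summits were 1863 bp apart, and that of animal 7 lay 57 bp from the MBD3 summit. The strongest H3K27ac peak had folds of 6.95, 5.24 and 4.69 at ranks 6720, 14919 and 15662. Low PolII_S5P beside high MBD3 is a description of this gene in 3 animals, and the difference from the other genes was not tested.

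Most of the long Bdnf window was free of peaks. H3K27ac covered 5.38%, 4.92% and 1.56% of it, MBD3 6.65%, 5.85% and 2.34%, and PolII_S5P 0%, 0.527% and 0.716%. Between 14.4% and 26.7% of 73 kb tiles were covered as much by H3K27ac, and between 3.80% and 8.97% by MBD3. MBD3 and H3K27ac peaks of every animal met at chr2:109506241-109509130. A second group of MBD3 peaks stood at chr2:109522315-109524636 in every animal, with H3K27ac there in 2 animals and no PolII_S5P.

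By share of the window under H3K27ac peaks the order was Arc at 67.3% ± 8.06, Egr1 at 40.9% ± 7.82, Npas4 at 37.7% ± 12.3, Nr4a1 at 35.9% ± 11.6, Fos at 20.3% ± 5.61 and Bdnf at 3.95% ± 2.09 (SD, n = 3). Arc lay above Egr1 and Fos above Bdnf without overlap of the animals. The ranges of Egr1, Npas4, Nr4a1 and Fos overlapped from each to the next, but all genes share the libraries, and within each of the 3 animals Nr4a1 lay above Fos. Egr1 above Npas4 and Npas4 above Nr4a1 held in 2 of 3 animals. For MBD3 the order was Arc at 31.4% ± 4.87, Egr1 at 22.2% ± 3.19, Fos at 14.5% ± 3.76, Npas4 at 12% ± 5.44, Nr4a1 at 9.18% ± 4.76 and Bdnf at 4.95% ± 2.29. The ranges of Arc, Egr1 and Fos did not overlap, and those of the neighbours below Fos did. Within each animal Npas4 lay above Nr4a1 and Nr4a1 above Bdnf, while Fos above Npas4 held in 2 of 3 animals. For PolII_S5P it was Arc at 17.8% ± 2.2, Egr1 at 13.0% ± 3.96, Nr4a1 at 10.9% ± 8.13, Npas4 at 5.35% ± 3.30, Fos at 1.46% ± 0.642 and Bdnf at 0.415% ± 0.371. The ranges overlapped between all neighbours except Fos and Bdnf, yet within each animal Arc lay above Egr1, Nr4a1 above Npas4 and Npas4 above Fos. Egr1 lay above Nr4a1 in 2 of 3 animals. With 3 animals a two-sided exact sign-flip test of such a difference cannot give a p below 0.25, so none was made. These shares depend on how the window ends were set, and the windows differ in length.

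The strongest PolII_S5P summits of the animals lay close together at Fos, Egr1, Npas4 and Arc, with ranges of 28, 23, 20 and 47 bp, and far apart at Nr4a1, with 17436 bp, and at Bdnf, with 1863 bp between 2 animals. For MBD3 the range was 11 bp at Npas4, 19 bp at Bdnf and 229 bp at Nr4a1. It was 8168, 11205 and 19864 bp at Egr1, Arc and Fos, where the strongest peak changed place between animals. Each of those places held an MBD3 peak in every animal, so the change was in which of these peaks was strongest. For H3K27ac the range ran from 936 bp at Bdnf to 29723 bp at Nr4a1. For background, over all merged regions with a peak of every animal, the median range of the strongest summits was 65 bp in 3076 PolII_S5P regions, 63 bp in 30671 MBD3 regions and 169 bp in 36793 H3K27ac regions. In a merged region the summits lie in 1 continuous stretch, whereas in a window they may lie anywhere, so only the genes whose strongest peaks share a place can be set against it. The 4 genes with PolII_S5P ranges of 20 to 47 bp lay below the median, as do many regions, since 44.8% had a range within 50 bp.

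Peaks that overlapped each other were merged over all libraries into 33 sites in the 6 windows. At 14 of them at least 2 antibodies had peaks in every animal. At 5 sites H3K27ac, PolII_S5P and MBD3 all did, 1 each at Fos (chr12:85518545-85522279), Egr1 (chr18:34991605-34997264), Npas4 (chr19:5037679-5045971), Nr4a1 (chr15:101163441-101166987) and Arc (chr15:74532793-74552242). Bdnf had none, because PolII_S5P had no peak there in animal 5. With PolII_S5P lists of equal length only 3 genes have PolII_S5P in every animal, so at most 3 such sites can be left. The other sites with at least 2 antibodies in every animal were chr12:85531681-85534978 at Fos, chr18:34981061-34986258, chr18:34986613-34990040 and chr18:34998002-34999119 at Egr1, chr19:5047898-5052291 at Npas4, chr15:101143472-101147309 and chr15:101150009-101155106 at Nr4a1, chr15:74530307-74531734 at Arc and chr2:109506241-109509130 at Bdnf. Of the 16 sites with MBD3 in every animal, 8 had no PolII_S5P peak in any. Shares of merged sites over the whole genome were not computed, so these counts do not set the 6 genes apart. Of single MBD3 peaks in the whole lists, only 4.05% to 16.4% overlapped PolII_S5P of the same animal.

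Within an animal, MBD3 peaks of the 6 genes mostly overlapped H3K27ac, at 91 of 107 (85.0%), against 59.7% to 61.8% of the whole MBD3 lists. They overlapped PolII_S5P at 28 of 107 (26.2%), against 4.05% to 16.4%. H3K27ac peaks overlapped MBD3 at 69 of 94 (73.4%), against 37.4% to 49.1%. PolII_S5P peaks overlapped H3K27ac at 25 of 34 (73.5%, against 59.7% to 61.2%) and MBD3 at 23 of 34 (67.6%, against 44.8% to 53.8%). Each of these shares lay above the range of the whole lists, and the differences were not tested. H3K27ac and MBD3 peaks in the windows were also wider than those of their lists, with median widths of 1778.5, 1725 and 838 bp against 666, 630 and 569 bp for H3K27ac, and of 676.5, 639 and 483 bp against 457, 445 and 388 bp for MBD3. PolII_S5P peaks had median widths of 869, 1024 and 518 bp against 349, 387 and 363 bp. H3K4me1 peaks were narrower than their list in animal 5, at 382.5 against 456 bp, and wider in animal 7, at 575 against 526 bp. The part of width in the shares was not tested. PolII_S5P peaks overlapped H3K4me1 at 0 of 34, against 10.9% to 16.9% of the lists. Animal 9 had no H3K4me1 peak in the windows, so its 10 PolII_S5P peaks could not overlap one. That leaves 0 of 11 in animal 5, against 11.1% of its list, and 0 of 13 in animal 7, against 16.9%. These counts are small and were not tested.

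H3K4me1 peaks at the 6 genes were few, and weak by fold. Their folds ran from 1.95 to 3.13 with a median of 2.45, the highest −log10 q-value was 5.55, and 18 of the 19 lay below the median fold of their list. Peaks of the other antibodies spread over their lists, with 41 of 94 for H3K27ac, 57 of 107 for MBD3 and 19 of 34 for PolII_S5P below the median. At Bdnf the folds were 3.13 and 2.44 in animals 5 and 7, the strongest 40.9% and 77.4%, and the peak of animal 5 was the only 1 of the 19 above its list's median. At Npas4 they were 2.75 and 2.67, at Egr1 2.71 and 2.21, at Nr4a1 2.45 and 2.51, and at Fos 2.31 and 2.38. Arc had H3K4me1 in animal 5 only, with a fold of 2.25. The standing depended on the measure. Ranked by −log10 q-value, the strongest H3K4me1 peak stood on average at 30.7% of its list at Egr1, against 78.2% by fold. The same 2 values were 35.7% and 65.6% at Npas4, 53.1% and 78.2% at Nr4a1, and 64.8% and 90.7% at Arc. They were 71.8% and 84.8% at Fos, and 64.9% and 59.1% at Bdnf. H3K4me1 in animals 5 and 7 lay at the same place at Bdnf, within 217 bp, and at Egr1, within 26 bp.

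Animal 9 had 0 H3K4me1 peaks in the windows out of 22611, which allows a share of up to 0.0133% of its list, from counting error only. The share expected for windows of this length was not computed, so the 0 does not show a depletion. In animals 5 and 7 the relative coverage of H3K4me1 was 3.25 and 1.94. The nearest H3K4me1 peak of animal 9 was 10.4 kb from the Npas4 window, 25.8 kb from Egr1, 44.3 kb from Bdnf, 106 kb from Fos, 283 kb from Nr4a1 and 1040 kb from Arc. The H3K4me1 list of animal 9 is the shortest of the 3. With the lists of animals 5 and 7 cut to its length by fold, the mean relative coverage of H3K4me1 fell from 1.73 to 0.176.

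TDG had no peak at any of the 6 genes, in lists of 130, 256 and 957 peaks. A count of 0 allows up to 2.31%, 1.17% and 0.313% of the peaks of animals 5, 7 and 9, and up to 0.223% of all 1343. The nearest TDG peaks stood 38.2 kb from the Npas4 window, in animals 5 and 9. For Arc the nearest was 402 kb away, for Egr1 425 kb, for Fos 1.77 Mb, for Nr4a1 2.01 Mb and for Bdnf 2.87 Mb. With so few TDG peaks anywhere, a signal below the threshold of the peak caller at these genes was not detectable from the lists. In the 25 kb tiles a TDG peak in all 3 animals was rare as well, at the 0.0423% given above.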

How the data were processed

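ChIP-seq peak lists of 15 libraries (5 antibodies, 3 mice) were used, and 3 inputs were left out because only peak lists were used. Per the submitters' processing notes, the tools included MACS2 2.2.7.1 for peaks, reads were handled with Picard 2.18.29, Trim Galore 0.6.7, bcl2fastq 2.20 and SAMtools 1.16.1, and mm39 is among the builds listed. Which aligner and which peak-calling control were used is not given in the sources used here. For each library the authors deposited 1 list, whose columns are a whole-number score, the enrichment as a ratio or fold over local background, p-values and q-values both as −log10, and another number, the offset of the summit in bp. Read depth is unknown, so differences in list length cannot be told apart from differences in depth or antibody efficiency, and the number of peaks in a list (130 to 68887) sets how deep into weak signal it reaches.

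Only chromosomes 1 to 19, X and Y were kept, and coordinates are counted from 1. Relative coverage took each chromosome to end at the last peak in any list. Antibody labels were permuted over the libraries 100000 times, and pairs of antibodies were compared by two-sided exact permutation with Benjamini-Hochberg adjustment over 10 pairs. The labels number libraries by animal, so equal numbers pair them, and over 18 such pairs the deviations from the antibody means had a mean correlation of 0.402 (0.0616 to 0.860) across genes. The code was tested on simulated peaks and recovered the planted values. The software was scipy 1.17.1, pandas 2.3.3, matplotlib 3.10.9 and numpy 2.4.6 under Python 3.11.15.

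All 6 genes are named, with the strongest peak per antibody and library and each merged site with at least 2 antibodies in every animal. The genes and lists were chosen with earlier results of these data known. No gene table on mm39 was used here, so gene starts were not placed. For this reason 35 further activity-regulated genes, cell type markers and the genes most alike were not analysed here. Promoter sequences and neighbours are from RefSeq on GRCm38.p6. Alternatives covered the q-value threshold, the overlap rule, list length, ranking by −log10 q-value, merging within 500 bp, tile length, the scale, each animal left out and the pairing, and 3 more were chosen after seeing the data.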

Additional observations from a re-analysis of the deposited data

How the results depend on the processing

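The antibody effect on relative coverage stayed past the threshold under every alternative run, with eta squared between 0.50 and 0.979 and a permutation p between 2e-05 and 0.00946. No alternative made the lists of different antibodies equally long. With the replicate block, in which labels were permuted within each animal, eta squared was 0.624 (exact permutation p = 0.000556 over 14400 arrangements). For pairs of antibodies no call could change with the pairing. The exact permutation test cannot give a p below 0.1 there, and the sign-flip test cannot give a p below 0.25. The difference of H3K27ac minus MBD3, -0.126, changed sign to 0.801 with peaks of −log10 q-value of at least 5 and to 0.154 with lists of equal length, and ran from -0.792 to 1.03 when each animal was left out; the cause was not tested. With −log10 q-value of at least 5 the H3K27ac mean was 13.2. With each window weighted equally, chosen after seeing the data, H3K27ac was 14.3 and MBD3 14.5. Without the PolII_S5P library of animal 5, also chosen after seeing the data, eta squared was 0.976. PolII_S5P peaks were found in all 3 animals at 3 genes with lists of equal length, against 5, and the genes with H3K4me1 in every animal numbered 0 to 5 when each animal was left out. Ranking by −log10 q-value moved the mean standing of the strongest peak by more than 1 SD in 10 of 24 combinations of gene and antibody. Merging peaks within 500 bp did so in 1 of 24, and requiring the summit in the window in 0 of 24. H3K4me1 at Arc, with peaks in 1 animal only, has no SD, and any move was counted there. It is among the 10 and is the 1 for merging. Large moves within a large SD were not counted, as for PolII_S5P at Fos, from 38.9% to 12.6% by −log10 q-value. In 50 kb tiles the shares with a peak in all 3 animals were 32.0% for H3K27ac, 33.5% for MBD3, 4.50% for PolII_S5P, 14.3% for H3K4me1 and 0.0883% for TDG. Read depth is unknown, so what each list could have detected is unknown too.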
